A study of Mus musculus with 6 samples.

Results

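Penk is the mouse gene for proenkephalin, the precursor protein of the enkephalin opioid peptides. It was 1 gene of the 55401 in the count table, of which 29043 had at least 1 count in the 6 libraries described here. Penk was chosen on its own values, because its day 7 level lay below its day 0 level in control cells and above it in both knockdown lines. Its levels and differences are therefore given as a description, with no test. In the table it has the identifier ENSMUSG00000045573, and GENCODE M21 places it on the minus strand of GRCm38 at chr4:4133531-4138819 as a protein-coding gene with 1634 bp of exon.

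RNA-seq was performed on C3H10T1/2 cells, a mouse mesenchymal stem cell line that can be turned towards bone, fat and muscle cells in culture. The 3 lines carried a control shRNA (shControl), an shRNA against the transcription factor NFIB (shNFIB) or an shRNA against MLL1 (shMLL1). MLL1 is the histone H3 lysine 4 methyltransferase encoded by Kmt2a. Each line was collected at confluence (day 0) and after 7 days in an osteogenic medium that held dexamethasone at 0.1 µM, ascorbic acid 2-phosphate at 100 µg/ml and β-glycerophosphate at 20 mM, so every day 7 library also carries exposure to this glucocorticoid. There was 1 library per condition and hence no replicate check on any level. Whether a line is a single clone or a pool is not given in the sources used here. The comparisons ask how the osteogenic programme of these cells depends on NFIB and MLL1.

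Proenkephalin is cut in the secretory pathway into Met-enkephalin and Leu-enkephalin by prohormone convertases and carboxypeptidase E. The enkephalins act on the delta and mu opioid receptors and are quickly broken down outside the cell by peptidases such as neprilysin and aminopeptidase N. Transcription of Penk is known to respond to cAMP and calcium through an enhancer that binds CREB and AP-1 proteins. The gene is best known from brain and adrenal medulla, and it is also transcribed in mesenchymal and skeletal tissue during development.

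The libraries held between 21608680 counts (shMLL1, day 7) and 34774066 counts (shNFIB, day 0). Both targeted transcripts were lower in their own knockdown line. Nfib was at 35.3 CPM (counts per 1000000 counts of the library) in shNFIB and 116 CPM in shControl at day 0, and at 8.15 and 83.5 CPM at day 7. Kmt2a was at 30.9 CPM in shMLL1 and 74.7 CPM in shControl at day 0, and at 34.8 and 66.3 CPM at day 7. In shMLL1 at day 0, Nfib was at 65.5 CPM, below its shControl level. All 10 listed mesenchymal markers were detected. CPM values were scaled by the TMM method throughout, and every interval is a 95% counting interval that does not cover the variation between cultures. In bulk RNA, fewer cells that express Penk and less Penk RNA per cell cannot be told apart.

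Penk was detected in every library. In shControl it had 404 counts at day 0 and 44 counts at day 7, or 12.6 CPM (interval 11.4 to 13.9) and 1.44 CPM (1.05 to 1.94). In shNFIB it had 67 counts at day 0 and 673 counts at day 7, or 2.12 CPM (1.64 to 2.69) and 22.8 CPM (21.1 to 24.6). In shMLL1 it had 92 counts at day 0 and 1661 counts at day 7, or 3.05 CPM (2.46 to 3.74) and 68.1 CPM (64.8 to 71.4). Thus the control line was high before osteogenic medium and low after it, and both knockdown lines were low before and high after. A level of 3 counts, taken here as the floor, corresponds to between 0.0939 and 0.123 CPM, so the lowest Penk level stood well above it.

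**Figure D1:**
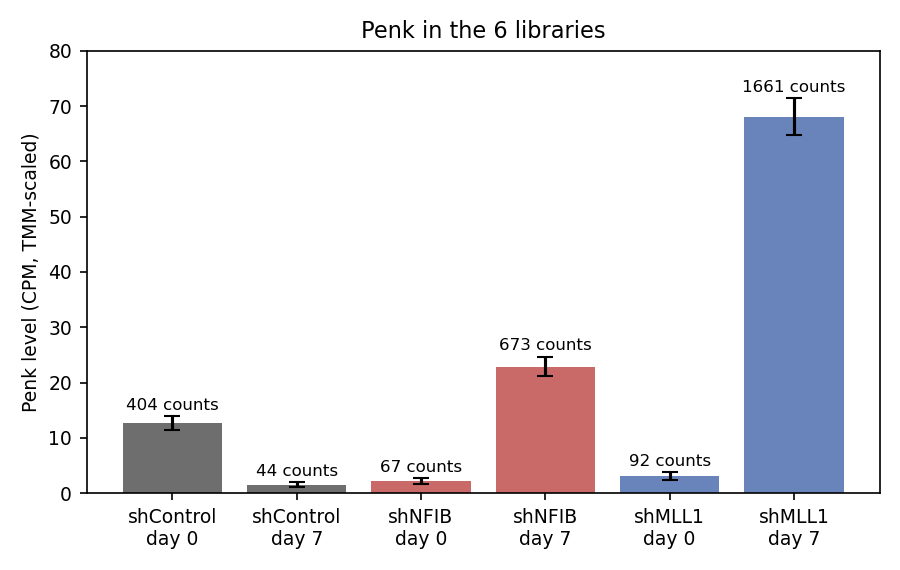
Penk level in each of the 6 libraries, in TMM-scaled CPM on a linear axis that starts at 0. Bars are single libraries, error bars are 95% exact Poisson counting intervals, and the count behind each bar is printed above it. The control line goes from 12.6 to 1.44 CPM while shNFIB goes from 2.12 to 22.8 CPM and shMLL1 from 3.05 to 68.1 CPM.

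Ordered by level, shMLL1 at day 7 came first, followed by shNFIB at day 7, shControl at day 0, shMLL1 at day 0, shNFIB at day 0 and shControl at day 7. The first step in this order was 2.99-fold (log2 difference 1.58, interval 1.45 to 1.71). The step from shNFIB at day 7 to shControl at day 0 was 1.80-fold (0.85, 0.67 to 1.03), so both knockdown lines at day 7 stood above the highest control library. The step down to shMLL1 at day 0 was 4.14-fold (2.05, 1.72 to 2.40), and it separated the 3 higher libraries from the 3 lower ones. Among the lower libraries, shMLL1 at day 0 was 1.44-fold above shNFIB at day 0 (0.52, 0.05 to 1.00). shNFIB at day 0 and shControl at day 7 did not differ beyond counting error (0.55, -0.01 to 1.14). The 3 lower libraries lay between 1.44 and 3.05 CPM.

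Per length of exon, Penk reached 41.7 CPM per kb in shMLL1 at day 7. This placed it at rank 938 of the 15069 protein-coding genes with a count in that library, within the top 6.22%. In shNFIB at day 7 it was at 13.9 CPM per kb and rank 3625 of 14487. In shControl at day 0 it was at 7.74 CPM per kb and rank 5750 of 14636 (top 39.3%). In the other 3 libraries Penk was one of the weakly expressed genes, between 0.883 and 1.87 CPM per kb and in the top 63.0% to 71.2%.

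From day 0 to day 7, the log2 difference of Penk was -3.13 in shControl (interval -3.61 to -2.68), an 8.74-fold lower level. It was 3.42 in shNFIB (3.06 to 3.81), a 10.7-fold higher level. It was 4.48 in shMLL1 (4.18 to 4.80), a 22.3-fold higher level. Penk was chosen on these differences and the intervals cover counting error alone, so they are no test. Among genes with at least 10 counts in 1 of the libraries compared, 14.9% were past 2-fold lower at day 7 in shControl, 16.5% were past 2-fold higher in shNFIB and 25.8% were past 2-fold higher in shMLL1. Large differences between the days were therefore common in each line, and Penk was far out among them without being the extreme. In shControl, 287 of 16786 genes had a lower log2 difference than Penk. In shNFIB, 405 of 16253 genes had a higher one, and in shMLL1, 481 of 17049.

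The day difference of Penk was 6.55 log2 units higher in shNFIB than in shControl (counting interval 5.97 to 7.13) and 7.61 higher in shMLL1 than in shControl (7.07 to 8.15). Between the knockdown lines it was 1.06 higher in shMLL1 (0.59 to 1.53). Both knockdown lines are set against the same 2 control libraries, so these values share a reference and are not independent of each other. They restate the contrast for which Penk was chosen, and it was not tested.

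At day 0, before osteogenic medium, Penk was 5.95-fold lower in shNFIB than in shControl (log2 difference -2.57, interval -2.97 to -2.20). It was 4.14-fold lower in shMLL1 (-2.05, -2.40 to -1.72). Of all genes with enough counts, 6.32% and 9.34% were past 2-fold lower in these comparisons, and 275 of 15719 and 441 of 16064 genes lay below Penk. At day 7 the direction was the opposite one. Penk was 15.7-fold higher in shNFIB than in shControl (3.98, 3.54 to 4.45) and 47.0-fold higher in shMLL1 (5.56, 5.13 to 6.03). Here 8.07% and 8.59% of genes were past 2-fold higher, and no more than 89 of 16716 genes in shNFIB and 67 of 16898 genes in shMLL1 had a higher log2 difference than Penk. Its rank was thus more extreme between the lines at day 7 than between the days within a line. Penk was picked on these same values, so its ranks are a description and no result.

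The first part of the gene is overlapped on the other strand by A830012C17Rik (ENSMUSG00000085996), annotated as a processed transcript whose start lies 0.5 kb from that of Penk. It had 22 counts at day 0 and 3 at day 7 in shControl, 0 and 1 in shNFIB, and 2 and 16 in shMLL1. Its counts went the way of Penk in shControl and shMLL1 and were near 0 in shNFIB. The strand setting of the counting is not given in the sources used here, so reads of the overlap cannot be assigned to either gene with certainty. Its largest count, 22, stood beside 404 counts of Penk in the same library.

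The pattern by which Penk was chosen was rare. Of 15358 genes with at least 10 counts in 1 library of each line, 6 were past 2-fold lower at day 7 in shControl and past 2-fold higher at day 7 in both knockdown lines (0.0391%), Penk included. The mirror pattern, higher in shControl and lower in both knockdown lines, was held by 10 genes (0.0651%), while its 3 conditions taken singly were met by 23.0%, 13.9% and 19.8% of genes. At any size of difference, 564 genes (3.67%) had the signs of Penk, whereas 10418 genes (67.8%) had the same sign in all 3 lines. Since Penk was picked for this pattern, its own place in these counts is no result. When ranked by the smallest of the 3 absolute log2 differences, Penk came first with 3.13 and the next gene had 1.76.

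The other 5 genes with the pattern were Gm31728, Hist1h2ai, Aff2, Epyc and Gm37979, and they lie on chromosomes 1, 13, X, 10 and 3. The pattern was carried by few counts in most of them, and 3 of the 6 genes had 3 or fewer counts in at least 1 library. Penk, Aff2 and Epyc were the 3 whose intervals left out 0 in every line. Aff2 encodes a nuclear protein of the AF4/FMR2 family, which takes part in transcription elongation. It had 54 counts at day 0 and 22 at day 7 in shControl, 216 and 895 in shNFIB, and 76 and 426 in shMLL1. Its log2 differences were -1.22 (-2.01 to -0.49), 2.15 (1.93 to 2.37) and 2.79 (2.44 to 3.17). Unlike Penk, Aff2 was already higher at day 0 in both knockdown lines than in shControl, at 6.84 and 2.52 CPM against 1.69 CPM. Among the 6 genes, Aff2 and Penk alone never had fewer than 10 counts in a library.

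Epyc encodes epiphycan, a small leucine-rich proteoglycan of growth-plate cartilage. It had 39 and 15 counts in shControl, 15 and 32 in shNFIB, and 5 and 176 in shMLL1, with log2 differences of -1.30 (-2.28 to -0.42), 1.18 (0.26 to 2.18) and 5.41 (4.19 to 7.08). As for Penk, its highest library was shMLL1 at day 7 and its day 0 level was lower in both knockdown lines than in shControl. Gm37979 was the gene just inside the 2-fold limit, with a log2 difference of 1.03 in shMLL1 from 6 and 10 counts. Mfrp, chosen after its values were seen, was the gene just outside it, with 0.97 in shNFIB from 7 and 13 counts. Hist1h2ai belongs to a multigene histone family whose near-identical copies can share reads.

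**Figure D2:**
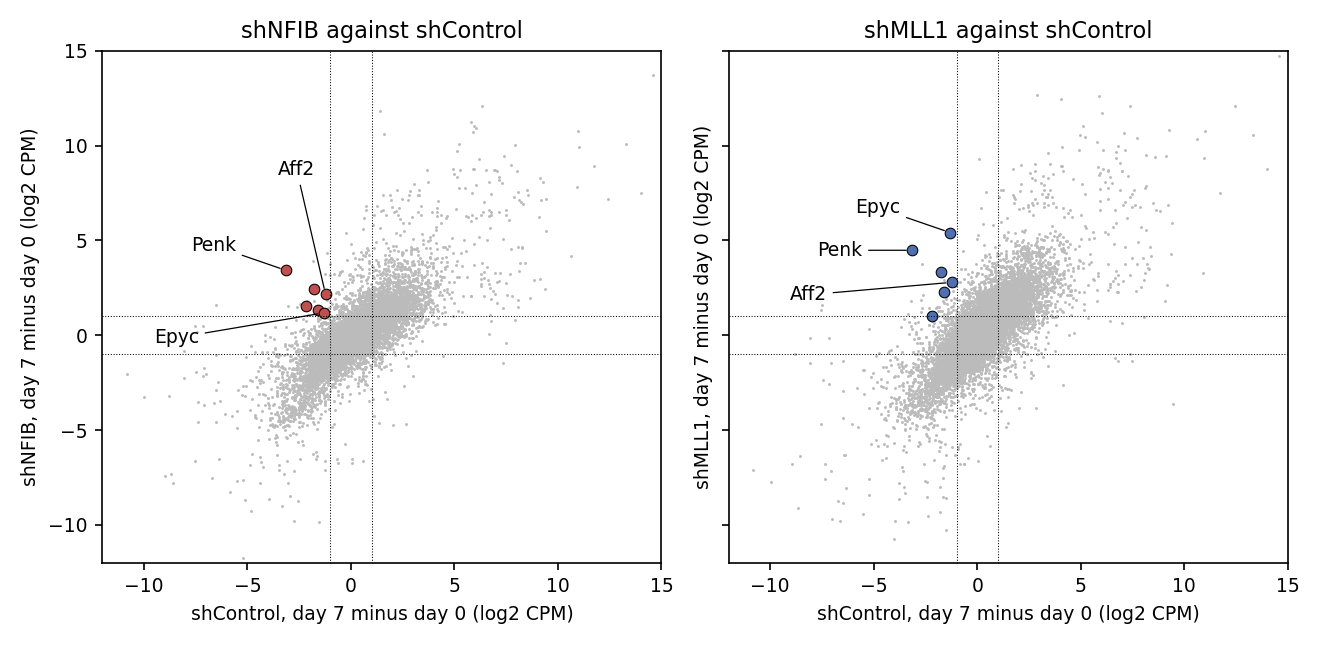
Day 7 minus day 0 log2 difference in shControl (x axis) against that in shNFIB (left) and shMLL1 (right). Grey points are single genes with at least 10 counts in 1 library of each line, large points are the 6 genes with the Penk pattern, and dotted lines mark a 2-fold difference. Most genes lie along the rising diagonal, and Penk lies in the upper left at -3.13 against 3.42 and 4.48.

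The likeness of whole profiles was measured as the root-mean-square difference in log2 CPM over the 6 libraries, after each gene was centred on its own mean, for 13338 other genes that had 10 counts or more in each library. The closest gene was Crispld2 and the tenth was Megf9. In log2 units, the median gene differed by 2.06 and a flat profile would differ by 2.00, beside which the 10 closest genes stood between 1.05 and 1.38. The 10 closest genes were Crispld2, Clec2g, Lrrc4c, Nhs, Arl4d, Gm28085, Gm13091, Fam180a, Gas7 and Megf9. Gm13091 and Megf9 lie on chromosome 4 with Penk. The 6 points share library depth and scaling between genes, and likeness was what selected these 10.

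All 10 were past 2-fold higher at day 7 in shMLL1 and 5 were so in shNFIB. Over all genes with enough counts these shares were 25.8% and 16.5%. Since likeness to Penk selected the 10 genes, their counts are no result. In shControl 6 were lower at day 7, of which 3 were past 2-fold, and 0 of the 10 met all 3 conditions. The shControl intervals of Crispld2, Clec2g, Gm28085, Gm13091, Fam180a and Megf9 held 0. Crispld2, which encodes a secreted cysteine-rich protein, had 44 and 34 counts in shControl, 18 and 103 in shNFIB, and 20 and 136 in shMLL1. Its log2 differences were -0.30 (-0.99 to 0.37), 2.60 (1.88 to 3.42) and 3.06 (2.39 to 3.83), so it resembled Penk in the knockdown lines and did not differ beyond counting error in the control line. Lrrc4c, which encodes the netrin-G1 ligand, had 35 and 11 counts in shControl and came nearest to Penk there, at -1.59 (-2.73 to -0.59). It differed less in shNFIB, at 0.85 (0.45 to 1.26). Gas7, a growth-arrest-specific gene, was the most abundant of the 10, with 586 and 5397 counts in shMLL1. In shControl its difference was 0.54 (0.45 to 0.63), in the direction opposite to Penk.

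**Figure D3:**
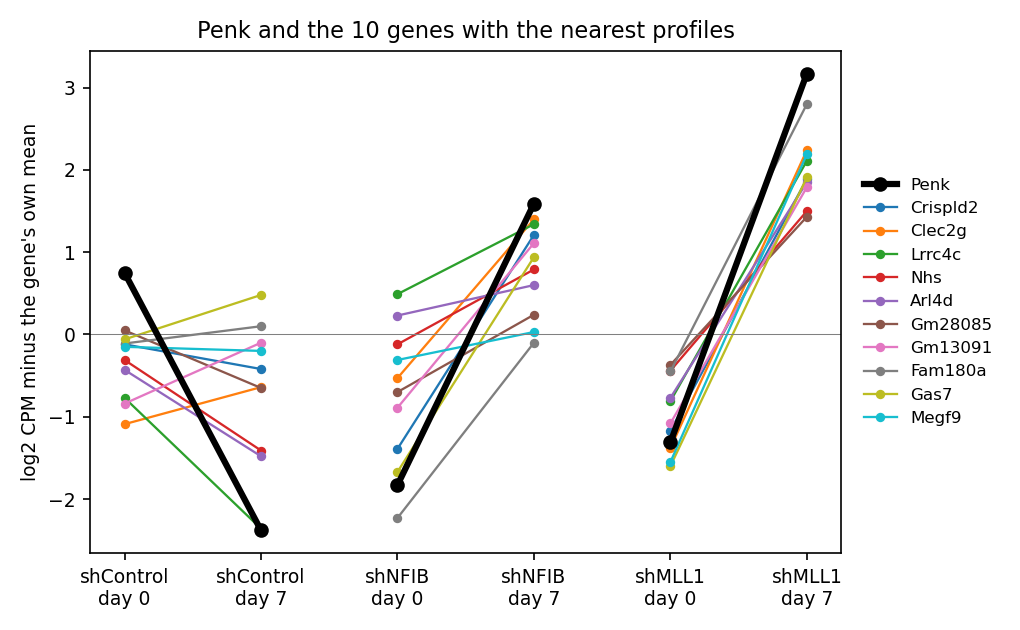
Profiles of Penk (black) and the 10 genes nearest to it over the 6 libraries, as log2 CPM minus the mean of the gene. Lines join day 0 and day 7 of the same cell line. The genes, selected for likeness to Penk, follow it upward in shMLL1, where all 10 were past 2-fold higher. They spread out in shControl, where 6 were lower and 4 higher at day 7, several of them within counting error.

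To place Penk among the genes that act with it, listed pathway genes were examined by role. Genes other than Penk were tested for a day effect over the 3 lines with the edgeR quasi-likelihood test, which takes the line as a block, has 3 libraries on each side and was adjusted by the Benjamini-Hochberg method over 15741 genes. Nothing in the labels says that the libraries came from separate experiments, so these p-values measure the spread between the 3 lines alone. Of all genes tested, 17.2% rose and 17.3% fell at day 7. Scaled by library size alone, the split was 3156 genes higher and 2093 lower, in place of 2713 and 2719. Of the 41 genes tested in the 6 lists, 9 rose and 8 fell. None had the Penk pattern, which 0.0391% of all genes with enough counts had, so its absence is no result about the pathway.

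Penk was the only opioid precursor gene with more than 3 counts in a library. Pdyn, the prodynorphin gene, had 3 counts in shMLL1 at day 0 and 0 counts in the other libraries. Pomc and Pnoc, the genes of proopiomelanocortin and prepronociceptin, had 0 counts in all 6 libraries. A count of 0 allows up to 3 counts, or 0.123 CPM in the shallowest library.

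Of 13 genes for the processing of proenkephalin, 9 were tested, of which 0 rose and 4 fell, with a median log2 difference of -0.49 beside -0.02 over all genes tested. At an unadjusted p under 0.05, and by DESeq2, the counts were also 0 and 4. The neuroendocrine convertases of the secretory granule were nearly undetected, with 0 counts of Pcsk1 and 2 counts of Pcsk2 over the 6 libraries. Cpe, which encodes the carboxypeptidase E that trims the convertase products, was among the abundant members. It had 16167 and 10355 counts in shControl, 15598 and 15187 in shNFIB, and 7600 and 7049 in shMLL1, and its log2 difference was -0.11 (SE 0.24, edgeR adjusted p = 0.756). Furin, a widely expressed convertase, was at 0.23 (SE 0.18, edgeR adjusted p = 0.333). Neither gene passed the test. After scaling, the log2 differences of Cpe were -0.58 in shControl, 0.06 in shNFIB and 0.2 in shMLL1. These are the signs of Penk, but none was past 2-fold. Those of Furin were 0.37, 0.05 and 0.28, with the same sign in every line.

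The 4 genes that fell were Pcsk6, Cpd, Pam and Scg5. Pcsk6, a furin-like convertase, had 957 and 57 counts in shControl, 540 and 50 in shNFIB, and 354 and 29 in shMLL1, a log2 difference of -3.55 (SE 0.28, edgeR adjusted p = 0.000734). Scg5, the chaperone 7B2 of the convertase PC2, had 18 and 6 counts in shControl, 68 and 3 in shNFIB, and 123 and 5 in shMLL1 (-3.42, SE 0.69, edgeR adjusted p = 0.012). Cpd, a carboxypeptidase of the trans-Golgi network, was at -1.53 (SE 0.25, edgeR adjusted p = 0.00641), and Pam, the peptide-amidating enzyme, at -1.15 (SE 0.20, edgeR adjusted p = 0.00799). These 4 were lower at day 7 in each of the 3 lines, including the knockdown lines in which Penk was higher. Pam lost its call without the line block (adjusted p = 0.0581) and without the shControl line (adjusted p = 0.0579). Ctsl, the cathepsin L gene whose product also cuts proenkephalin, had 33223 and 23399 counts in shControl, 32877 and 35489 in shNFIB, and 51182 and 17435 in shMLL1, with no call (-0.49, SE 0.33, edgeR adjusted p = 0.283).

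Oprd1, Oprm1 and Oprk1, which encode the delta, mu and kappa opioid receptors, had 0 counts in all 6 libraries. Oprl1, the nociceptin receptor gene, had 0 counts in the day 0 libraries and 4, 1 and 2 counts at day 7 in shControl, shNFIB and shMLL1. The 2 tested members of this list were Ogfr and Ackr3. Ogfr encodes the opioid growth factor receptor, a nuclear-associated protein that binds Met-enkephalin, and it was detected in every library, between 62.6 and 125 CPM. It did not pass the test (-0.36, SE 0.27, edgeR adjusted p = 0.314). Ackr3 encodes an atypical chemokine receptor that also takes up opioid peptides. It fell, from 1040 to 279 counts in shControl, 1754 to 426 in shNFIB and 1564 to 609 in shMLL1 (-1.61, SE 0.24, edgeR adjusted p = 0.00471).

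Of 8 genes for the breakdown of enkephalins, 7 were tested, 2 rose and 1 fell, with a median of 0.08. Anpep, the aminopeptidase N gene, rose from 1148 to 4945 counts in shControl, 1150 to 7348 in shNFIB and 340 to 2918 in shMLL1 (2.78, SE 0.28, edgeR adjusted p = 0.00122). It thus rose in the line where Penk was lower as well as in those where it was higher. Ece2 rose (1.15, SE 0.32, edgeR adjusted p = 0.0334) and Ece1 fell (-0.72, SE 0.20, edgeR adjusted p = 0.035), and both genes encode endothelin-converting enzymes. Both lost their calls without the line block (adjusted p = 0.0507 and 0.417). Leaving out shControl, shNFIB or shMLL1 gave adjusted p = 0.186, 0.0519 and 0.0675 for Ece2, and leaving out shControl or shMLL1 gave 0.191 and 0.0795 for Ece1, which was at 0.0612 with library size alone. Mme, the neprilysin gene, was well expressed, with 6015 and 6488 counts in shControl, 3893 and 5774 in shNFIB, and 3682 and 5368 in shMLL1. It did not pass the edgeR test (0.56, SE 0.21, adjusted p = 0.0804), although it did pass in DESeq2.

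**Figure D4:**
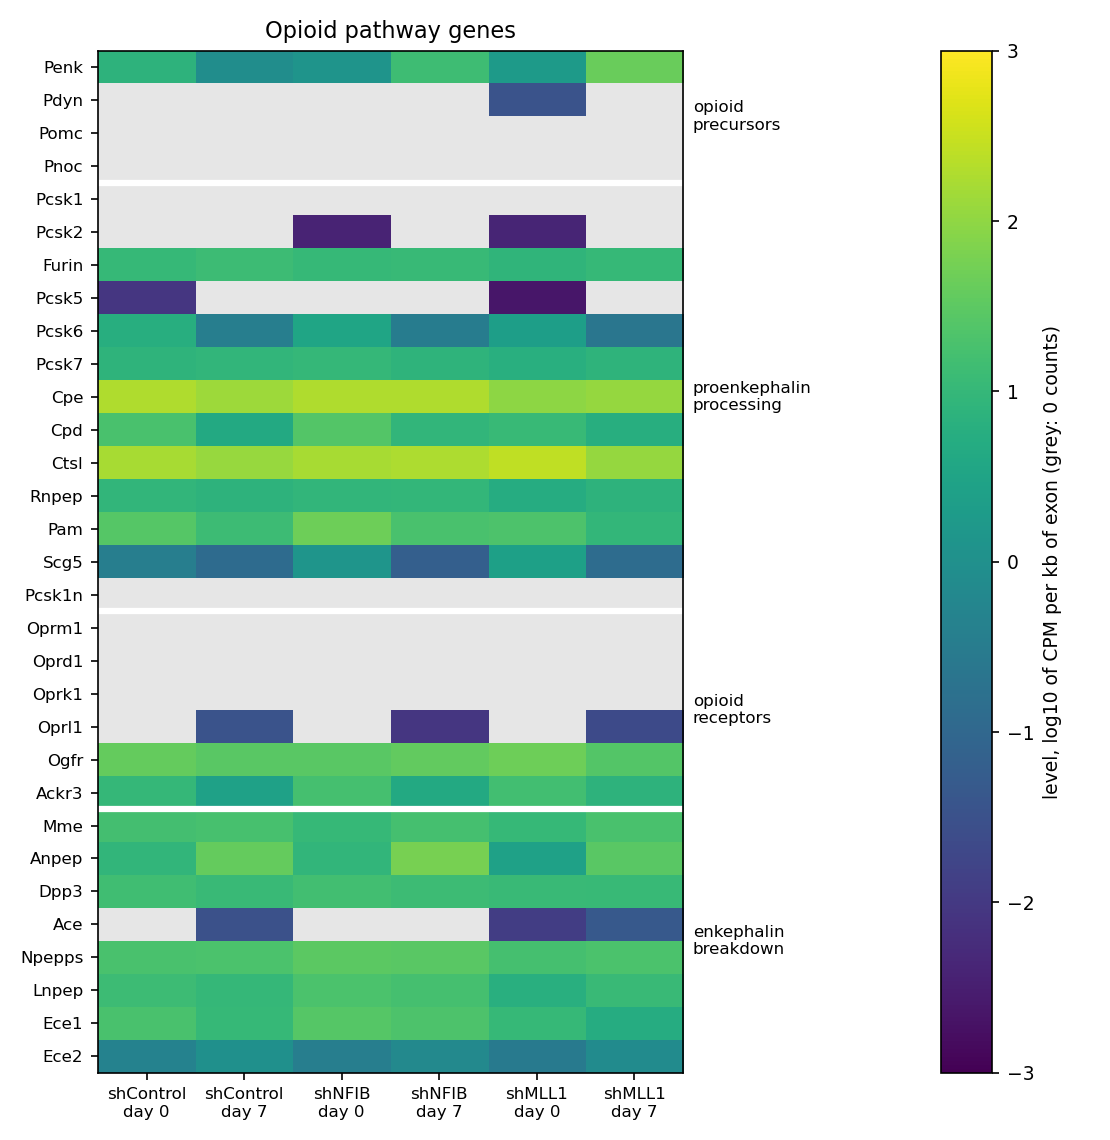
Level of Penk and of the listed opioid pathway genes in each library, as log10 of CPM per kb of exon by colour, in 4 blocks by role. Grey cells had 0 counts. The other precursor genes and the delta, mu and kappa receptor genes are grey in nearly all libraries (Pdyn had 3 counts in 1). Cpe and Ctsl have the highest levels shown.

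No listed CREB or AP-1 factor, the kinds of protein that bind the Penk enhancer, met the 3 conditions of the Penk pattern. Over all genes with enough counts that share was 0.0391%, so this count is no result about these factors. Of 13 genes for CREB and AP-1 factors, all were tested, 2 rose and 1 fell, with a median of -0.25. Fos rose, from 42 to 185 counts in shControl, 16 to 104 in shNFIB and 24 to 113 in shMLL1 (2.50, SE 0.35, edgeR adjusted p = 0.0039). Fosb rose by 2.55 (SE 0.62, edgeR adjusted p = 0.0224), a call lost without the shNFIB line (adjusted p = 0.0607), and Jund fell by 1.36 on the log2 scale (SE 0.18, edgeR adjusted p = 0.00295). These 3 genes moved the same way in every line, unlike Penk. Atf3 and Fosl1 differed in direction between the lines. Atf3 had 321 and 71 counts in shControl, 135 and 440 in shNFIB, and 1821 and 66 in shMLL1. Fosl1 had 82 and 49 counts in shControl, 123 and 551 in shNFIB, and 157 and 13 in shMLL1. Both thus paralleled Penk in shControl and shNFIB and went against it in shMLL1. Jun and Fosl2 had the signs of Penk in every line, and neither passed the test. The log2 differences in shControl, shNFIB and shMLL1 were -0.52, 0.08 and 1.07 for Jun, and -0.04, 0.36 and 0.11 for Fosl2.

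Of 10 genes known to respond to cAMP, 5 rose and 1 fell, with a median of 0.64. Over all genes tested, 17.2% rose and 17.3% fell. The day 7 medium also held dexamethasone, and its part in these changes was not tested. Per1, a clock gene, rose by 2.00 (SE 0.24, edgeR adjusted p = 0.00224), Sik1, a salt-inducible kinase, by 1.63 (SE 0.21, edgeR adjusted p = 0.00278) and Nr4a1, an orphan nuclear receptor, by 1.35 (SE 0.22, edgeR adjusted p = 0.00647). Egr1, an immediate early gene, and Ppargc1a, a coactivator of mitochondrial genes, were the other two, at 1.06 and 2.21 (edgeR adjusted p = 0.00829 and 0.0176). Nr4a2 was the gene that fell (-1.17, SE 0.29, edgeR adjusted p = 0.0217). Ppargc1a and Nr4a2 lost their calls without the line block (adjusted p = 0.0532 and 0.112), and Nr4a2 also without shControl (adjusted p = 0.144). The 5 genes that rose had higher values at day 7 in shControl too, where Penk was lower.

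Each knockdown line was also compared with shControl over both days in the same fit, where any interaction of line and day goes into the error term. In shNFIB 0.0762% of genes were higher and 0.178% lower, and in shMLL1 0.0127% were higher and 0.0191% lower. Of the 41 tested pathway genes, 0 were called in either line by edgeR. At an unadjusted p under 0.05 there were 7 higher and 2 lower in shNFIB, and 2 higher and 5 lower in shMLL1. Of all 15741 genes tested, 1956 in shNFIB and 1442 in shMLL1 were under the same cut. DESeq2 called 1 gene in each, Dusp1, which encodes a phosphatase of MAP kinases, in shNFIB and Ackr3 in shMLL1, both higher.

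Within 500 kb on either side of its start lay the starts of 17 other genes, of which 9 had a count and 4 had enough counts in the 3 lines to be judged. None of these 4 had the Penk pattern, which 0.0391% of all genes with enough counts had, so this is no result about the locus. The overlapping A830012C17Rik, whose counts went the way of Penk in shControl and shMLL1, was not among the 4. Gm11808, 165.2 kb away, had log2 differences of -0.28, -0.17 and -0.68 in shControl, shNFIB and shMLL1, and Chchd7, 199.9 kb away, had 0.49, 0.19 and 0.36. Rps20, a ribosomal protein gene 303.2 kb away, had -0.47, -0.34 and -1.27. These 3 genes kept 1 sign over the lines, and their differences were small beside those of Penk.

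Plag1, which encodes a zinc finger transcription factor and starts 200.4 kb from Penk, had the largest difference of the 4. It had 86 and 99 counts in shControl, 124 and 171 in shNFIB, and 349 and 1108 in shMLL1. Its log2 differences were 0.27 (-0.16 to 0.70), 0.56 (0.22 to 0.90) and 1.97 (1.80 to 2.15). Like Penk it was highest in shMLL1 at day 7, but it was not lower at day 7 in shControl. Sdr16c6 and Sdr16c5, the protein-coding genes nearest to Penk at 61.3 and 119.2 kb, had 0 and 2 counts over the 6 libraries.

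**Figure D5:**
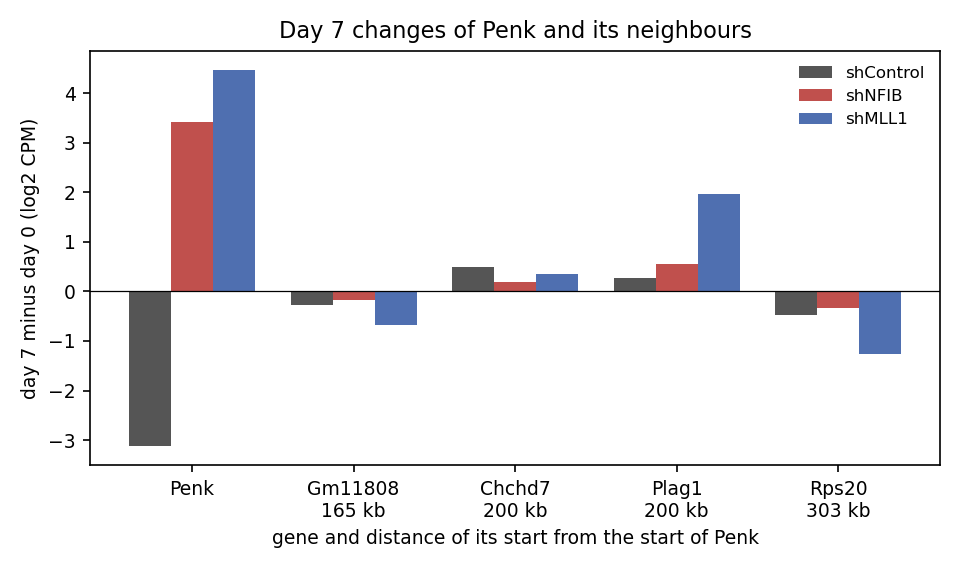
Day 7 minus day 0 log2 difference of Penk and of the 4 genes within 500 kb that had enough counts, with 1 bar per cell line and the distance between gene starts under each name. Each bar is a difference between single libraries. Penk is at -3.13, 3.42 and 4.48, and the next largest bar is 1.97 for Plag1 in shMLL1.

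Markers of cell types moved between the libraries as well. The summed level of 10 osteoblast markers was 265 CPM at day 0 and 1559 CPM at day 7 in shControl, 256 and 277 CPM in shNFIB, and 268 and 364 CPM in shMLL1. The sum was carried by Spp1, the osteopontin gene, with 6930 and 42101 counts in shControl, 6843 and 6682 in shNFIB, and 6771 and 7406 in shMLL1. Runx2 moved much like Spp1. The control line had 32.8 CPM of Runx2 before osteogenic medium and 117 CPM after it. Both knockdown lines stayed nearly level, with 31.4 then 30.4 CPM under NFIB knockdown and 32.2 then 35.3 CPM under MLL1 knockdown. Dlx5 followed Spp1 in part. Its level was 12.8 then 52.5 CPM in control cells and 4.43 then 3.69 CPM under NFIB knockdown. Under MLL1 knockdown, however, Dlx5 was also higher at day 7, at 4.04 then 15.9 CPM. Alpl and Phex differed from Spp1. Alpl, the bone alkaline phosphatase gene, had 7 and 111 counts in shControl, 8 and 215 in shNFIB, and 0 and 2 in shMLL1. Phex, an endopeptidase gene of bone, had 53 and 25 counts in shControl, 78 and 244 in shNFIB, and 200 and 151 in shMLL1. Thus Spp1, Runx2 and Dlx5 were highest in the 1 day 7 library in which Penk was low, and Phex was lowest there. The listed markers Sp7 and Bglap were also highest there, on 7 and 13 counts. Alpl, however, was highest under NFIB knockdown at day 7 (7.27 CPM, against 3.64 CPM for control cells). Dmp1 had the same day 7 level, 0.492 CPM, with control and MLL1 shRNA, and Ifitm5 nearly so (2.59 against 2.42 CPM). The markers therefore did not share a single order of the day 7 libraries. Of the 10 osteoblast markers, 9 had counts, Ibsp had 0, 5 were tested, and Ifitm5 alone rose over the lines (1.83, SE 0.53, edgeR adjusted p = 0.037). The 8 adipocyte markers summed to 51.0 and 200 CPM in shControl, 63.5 and 94.1 CPM in shNFIB, and 18.2 and 32.0 CPM in shMLL1, and 4 were tested, of which Pparg and Cfd rose. The 10 mesenchymal markers summed to between 8246 and 20291 CPM, and 1 rose (Pdgfra) and 2 fell (Vim and Thy1). Between shNFIB and shControl over both days, 2 markers were called. Thy1 was higher in shNFIB (2.36, SE 0.24, edgeR adjusted p = 0.0352), a call lost without shControl at day 0 or day 7 (adjusted p = 0.0833 and 0.202). Cfd was lower in shNFIB (edgeR adjusted p = 0.0441), with 2129 counts in shControl and 22 in shNFIB at day 7 and 0 in both at day 0. The Cfd call was lost in DESeq2 (adjusted p = 0.764) and without either day 7 library. The part of these markers in the Penk levels was not tested.

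Markers of neurons and neuroendocrine cells, which are known for Penk, were led by 3 genes. The neuronal tubulin gene Tubb3 had 289 and 6 counts in shControl, 322 and 19 in shNFIB, and 88 and 0 in shMLL1. Scg2, a secretogranin gene, had 69 and 14 counts in shControl, 13 and 0 in shNFIB, and 7 and 1 in shMLL1. Syp, which encodes synaptophysin, had 12 and 42 counts in shControl, 7 and 12 in shNFIB, and 12 and 54 in shMLL1. Tubb3 and Scg2 were thus lower and Syp higher at day 7 in every line. The 10 markers summed to 12.1 and 2.26 CPM in shControl, 10.8 and 1.12 CPM in shNFIB, and 3.88 and 2.38 CPM in shMLL1. These sums mostly reflect Tubb3 at day 0 and are no measure of the other members. Chga, Scg3 and Snap25 had 3 or fewer counts over all 6 libraries, and of 3 members tested, Syp rose and Scg2 and Tubb3 fell. The 8 blood cell markers summed to between 1.49 and 8.44 CPM, with Adgre1 and Cd3e at 0 counts and with Cd68 as the 1 member tested, which rose (1.80, SE 0.31, edgeR adjusted p = 0.00706). The marker calls of Ifitm5, Pparg, Vim, Thy1, Syp, Scg2 and Cd68 were each lost in at least 1 fit that left out a line.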

How the data were processed

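RNA of 6 C3H10T1/2 samples was sequenced as paired reads. Trimming was done by the authors in Trimmomatic 0.39 and alignment to mm10 (GRCm38) in HISAT2 2.2.1. Low-quality alignments and PCR duplicates were removed (SAMtools 1.12), and gene counts were made with HTSeq 0.11.1. The deposited table holds raw counts of 55401 Ensembl genes with no normalization, and 55141 of them were found in GENCODE M21. The annotation release and strand setting of the counting are not given in the sources used here.

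Counts were scaled by TMM (factors 0.908 to 1.13). Log2 differences between libraries used a prior count of 0.125, as edgeR applies it, with 95% Clopper-Pearson counting intervals. Levels have exact Poisson intervals, and intervals of differences between day differences were obtained by the delta method. Intervals and floors (3 counts) cover counting error only, and with 1 library per condition they leave out the variation between cultures. Genes were called past a 2-fold difference where 1 library had at least 10 counts. Listed genes were tested with edgeR 4.0.16 (R 4.3.3) by the quasi-likelihood test on line plus day, with 2 residual degrees of freedom, a biological coefficient of variation of 0.277 and an adjusted p threshold of 0.05, and DESeq2 1.42.0 was an alternative. The day comparison is paired by cell line. Deviations from the day means correlated within shControl, shNFIB and shMLL1 with r of 0.389, 0.423 and 0.256 across 15741 genes, which are not independent replicates. The fits and intervals were tested on simulated data. Penk, the gene lists and the rules for naming genes were chosen with earlier results of these data known. Named were Penk, the shRNA targets, list members, the 5 other genes with its pattern, the 10 nearest profiles and the genes within 500 kb. ChIP-seq data were not used here.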

Additional observations from a re-analysis of the deposited data

Results flagged for a closer look

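The day 7 against day 0 difference of Penk was in opposite directions in the cell lines. It was 3.42 log2 units in shNFIB and 4.48 in shMLL1, against -3.13 in shControl. The difference between the lines was not tested, because there was 1 library per condition, and Penk was chosen for this very contrast.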

How the results depend on the processing

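The 7 differences of Penk between libraries were recomputed under 4 alternatives of scaling and prior count, and all 28 values kept their sign and stayed within the counting interval. The number of genes with the Penk pattern (6) was 24 at a fold of 1.5, 2 at a fold of 3, 141 with at least 1 count, 3 with 30 counts, and 2 with 10 counts in every library, the last chosen after seeing the data. The mirror pattern (10 genes) gave 37, 0, 181, 4 and 4 under the same settings, 4 with library size alone, 6 with upper-quartile factors, 5 among protein-coding genes and 6 with a prior count of 2. With 30 counts, calls past 2-fold numbered 1779 higher at day 7 in shNFIB, 684 above and 592 below shControl in shNFIB at day 0, 999 higher in shMLL1 at day 0, 1330 lower in shNFIB at day 7, and 744 higher and 689 lower in shMLL1 at day 7, as fewer genes entered. Of the 10 nearest genes, 1 was shared when likeness was Pearson correlation and 4 with 30 counts in every library.

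The day effect called 5432 genes (7473 at an unadjusted p under 0.05), 3908 without the line block, and between 2102 and 4849 when a line was left out, the lowest without shControl. shNFIB against shControl over both days called 40 genes, 576 in DESeq2, 688 without the filter on low counts and 0 in edgeR without the day block (398 at an unadjusted p under 0.05). Leaving out 1 library gave between 19 and 197 genes, with 19 without shControl at day 7, 72 without shNFIB at day 7 and 197 without shNFIB at day 0. shMLL1 against shControl called 5 genes, 392 in DESeq2, 526 without the filter and 0 in edgeR without the day block (297 at an unadjusted p under 0.05). Leaving out 1 library gave between 2 and 355 genes, with 10 and 2 without shControl at day 0 and day 7, and 152 and 355 without shMLL1 at day 0 and day 7. The cause was not tested. Of 27 listed genes called for the day, 27 kept the call in DESeq2, 17 without the line block, and 16, 22 and 22 without shControl, shNFIB and shMLL1. With 1 library per condition, depth limits the counting error alone, and variation between cultures could not be measured.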
